A study of Mus musculus with 2 samples.

Results

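The genes described here end in more than a single way: their long reads split between last introns with different acceptors, the acceptor being the splice site at which the last exon begins. Members were taken among the 4345 mouse genes with at least 20 reads of multi-exon Known models in each of 2 libraries. A Known model is a transcript whose whole chain of introns is in the GENCODE M21 annotation. The reads of each gene were grouped by the acceptor of the last intron. A gene entered where its second most used acceptor held at least 10% of these reads in both libraries. In 932 of the 4345 genes more than 1 acceptor had reads, and 143 genes met the rule (3.29% of the 4345 and 15.3% of the 932). All 143 are annotated as protein-coding genes. The shares of both acceptors in Known reads chose the members, so they are given as descriptions and not as tests.

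Long-read RNA-seq, in which a read can span a transcript from its first to its last exon, was made from total RNA of adrenal glands. There was 1 group of 2 libraries, called replicates 1 and 2, from 14-day-old male mice of the strain B6CASTF1/J, a first-generation hybrid. The labels name a set of 3 males, give both libraries the same donor and number the biosamples 3 and 4, so separate animals cannot be read from them. Tests therefore compare these libraries only, and their p-values measure counting error and a spread that may be technical.

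Replicate 1 held 964815 reads and replicate 2 held 985101 reads without spike-ins, of which 69.4% and 66.1% belonged to multi-exon Known models. The markers of the adrenal cortex (10 of 10 with reads) summed to 42566 and 41909 CPM (reads per 1000000), and the 9 chromaffin cell markers, all with reads, to 9202 and 8938 CPM. The libraries differed in other tissues' markers. All 8 liver markers had reads and summed to 754 CPM in replicate 1 but to 15655 CPM in replicate 2, the 4 neuron markers to 155 and 38.6 CPM, and the 4 immune markers to 606 and 211 CPM. Fat markers summed to 10713 and 10508 CPM and erythroid markers to 14576 and 14470 CPM, while 1 of 6 kidney markers had reads, 2 and 4 in all. The part of these tissues in the shares below was not tested.

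As background, a messenger RNA ends where its precursor is cleaved and given a poly(A) tail, after a poly(A) signal that is most often AAUAAA. A gene with several such signals can end in different last exons. An alternative last exon can be an exon that the longer form skips. It can also be an internal exon that runs on into the next intron because a signal there is used before the next splice. Such a choice replaces the end of the protein and the whole 3′ untranslated region. Other genes can keep the same end and differ in whether the last intron is removed, or in the exact base at which the last exon begins. In the adrenal gland the cortex makes steroid hormones and the chromaffin cells of the medulla release catecholamines and granins from dense-core granules.

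The label of these genes as having 2 last exons held for 83 of the 143 members (58.0%). In these, the proximal last exon, the first met in the direction of transcription, ended before the distal one began. They fell into 47 genes whose proximal acceptor is also used inside the longer form (a shared acceptor, so that the proximal last exon is a longer version of an internal exon) and 36 whose proximal last exon the longer form skips. In the other 60 (42.0%) the last exons overlapped. In 35 of them the proximal form kept the whole last intron of the distal form as exon. In the other 25 the distal acceptor lay inside the proximal last exon, a shift of the acceptor. The annotated ends of the forms lay a median of 8 bases apart in each of these classes. They lay up to 4916 bases apart with a retained intron and up to 1439 with a shift, so not all overlapping forms share an end. Among the 789 other genes with more than 1 acceptor, 60.5% had a shared acceptor, 15.5% a skipped exon, 15.6% a retained last intron and 8.49% a shifted acceptor.

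**Figure D1:**
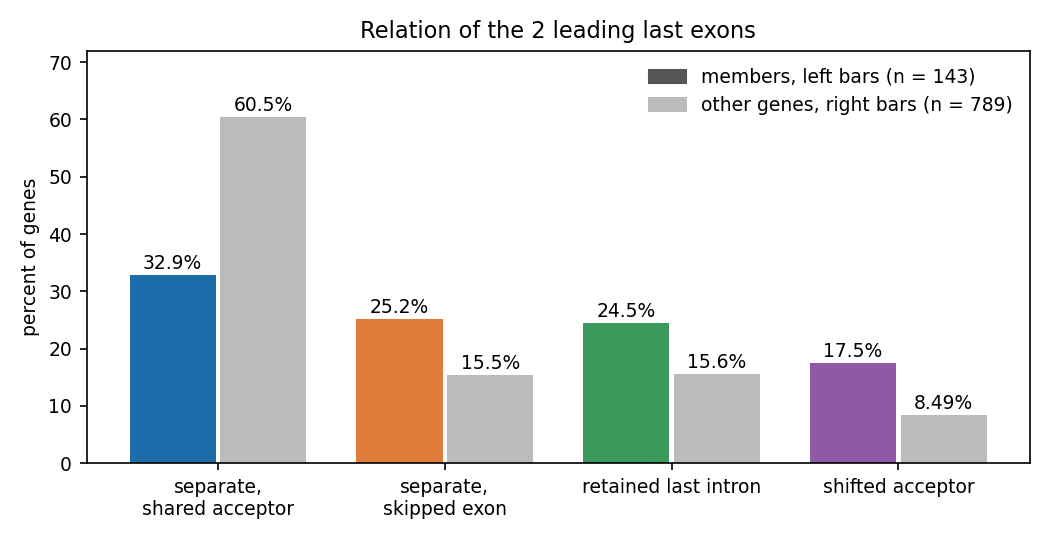
Percent of genes (y axis) in each of the 4 relations of the leading last exons (x axis), for the 143 members (left bars, in colour) and the 789 other genes with more than 1 acceptor (right bars, grey). A shared acceptor was the most frequent relation in both sets, 32.9% of members and 60.5% of other genes, and the other 3 relations each took a larger share of members.

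The following sequences show what separates the forms of genes with separate last exons. Each line has the last 15 bases of the exon before in lower case and the first 15 bases of the last exon in capitals, as read from the GENCODE M21 transcripts (mm10). The capitals of Lmna lie on the minus strand at chr3:88483399-88483413 (proximal) and chr3:88482086-88482100 (distal). Those of Lamp2 lie on the minus strand at chrX:38421837-38421851 and chrX:38405557-38405571. In Lamp2 both forms splice from the same exon, so that the lower-case bases are the same, while in Lmna the exons before the last differ.
Lmna proximal: aactccactggagaaGAAGTGGCCATGCGC
Lmna distal: agtccccggagccagAGCTCCCAGAACTGC
Lamp2 proximal: gacagtattctacagCCCAGGAGTGTTCGC
Lamp2 distal: gacagtattctacagCTCAAGACTGCAGTG

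Of the 25 shifted acceptors, 8 moved by exactly 3 bases, and in all 8 the bases between the acceptors were CAG. The lines below show 4 of the 8, with 12 bases of the exon before, the 3 bases that belong to the proximal form only in capitals, and the 12 bases that follow in both forms. The capitals lie at chr8:123403147-123403149 (plus strand) in Tcf25, chr5:33248684-33248686 (minus) in Ctbp1, chrX:10717984-10717986 (plus) in Mid1ip1 and chr4:65613129-65613131 (plus) in Trim32.
Tcf25: tacaccacagagCAGctgtaagtccat
Ctbp1: ggctgcctacagCAGgtaccctccagg
Mid1ip1: gcagtgcaagagCAGaaaaaggctaga
Trim32: gcgggcggtcagCAGgaatctgacact

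In Scg2 the bases that matter are those at the ends of a 120-base intron that lies inside the last exon of the proximal form. The first line has 10 bases of exon and then the start of the intron (chr1:79436032-79436061, minus strand). The second has the end of the intron and then 10 bases of exon (chr1:79435922-79435951). The capitals mark the first and last bases of the intron, GT and AG. All 35 retained introns began with GT and ended with AG on the transcribed strand, and AG stood before the distal acceptor in all 25 shifts.
Scg2 intron start: acctgagaagGTtagtgaatgctgtgggca
Scg2 intron end: cagctgattgaaatctccAGgaatttgcag

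Members had 12698 Known multi-exon reads in replicate 1 and 11320 in replicate 2. The number per gene over both libraries ran from 41 to 1699 with a median of 110, against a median of 123 over the 4345 genes. Only the leading pair of acceptors is described per gene, although 53 members used 3 or more, up to 6. The distal acceptor led in 78 members and the proximal in 65. The shorter of the transcripts led in 56 of 143.

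Among genes with a shared acceptor, the distal last exon began a median of 6526 bases beyond the proximal one, between 837 and 136244 bases. Distal forms led in 30 of 47. The proximal share had a median of 38.9% in replicate 1 and 39.3% in replicate 2. In this class a read of the longer form that stops in the shared exon can have the chain of introns of the proximal form. Where each read ended is not known, so such reads cannot be told apart, and shares of this class are of reads as counted. Ndufa7, a subunit of respiratory complex I, had the most reads: its proximal form took 51 of 472 reads (10.8%) in replicate 1 and 80 of 636 (12.6%) in replicate 2. That proximal form is annotated as a retained intron with no coding sequence. In Lmna, the gene of the A-type lamins of the nuclear envelope, the proximal form is lamin C, with 574 amino acids, and the distal form is the lamin A precursor, with 665. Reads counted as lamin C were 126 of 234 (53.8%, 95% Wilson interval 47.4% to 60.1%) in replicate 1 and 108 of 196 (55.1%, 48.1% to 61.9%) in replicate 2. As counted, the Lmna forms were thus near parity in both libraries, and their intervals overlapped.

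Sh3glb1 (endophilin B1, a membrane-curving protein) was mostly proximal, with 72.8% in replicate 1 and 83.7% in replicate 2. Their 95% Wilson intervals, 66.2% to 78.6% and 76.7% to 88.9%, overlapped. Overlap of such intervals or the lack of it, here and for other genes, does not test a difference between the libraries. Ppm1a, a serine/threonine phosphatase, was mostly distal, with proximal shares of 14.3% and 15%, and its proximal form has no annotated coding sequence. The ubiquitin ligase Mkrn1 had proximal shares of 23.4% and 17.4%, and its proximal protein has 196 amino acids against 481.

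A further 4 genes of the class were picked after their values were seen, because their forms are textbook isoforms. Dnajb6, a co-chaperone, has a short form of 242 amino acids (proximal, 71.9% and 75%) and a long one of 365. Cxcl12, a chemokine, ended proximally as the 89-residue form in 77.8% and 68.9% of its 36 and 45 reads, and distally as the 93-residue form in 22.2% and 28.9%. Papola, the canonical poly(A) polymerase, ended early in 41.7% and 38.1% of reads, with 293 amino acids in the proximal form against 739. The kinase gene Araf ended early in 42.1% and 42.0%, with 186 against 604. In Papola and Araf the distal form led in both libraries. The limit given above for reads of this class holds for all 4.

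Where the longer form skips the proximal last exon, the acceptors were a median of 10542 bases apart, between 224 and 219862 bases. Distal forms led in 23 of 36, and the median proximal share was 35.1% in replicate 1 and 29.8% in replicate 2. Lamp2, a major protein of the lysosomal membrane, has proximal and distal proteins of 415 amino acids each with different tails. The proximal tail held 128 of 227 reads (56.4%, interval 49.9% to 62.7%) in replicate 1 and 106 of 225 (47.1%, 40.7% to 53.6%) in replicate 2. The leading form of Lamp2 differed between libraries, and the intervals overlapped. Npm1 (nucleophosmin, a nucleolar chaperone) had 31 of 225 reads (13.8%) and 17 of 161 (10.6%) in a proximal form of 257 amino acids, against 292 in the distal one. Npm1 has processed pseudogenes, and how reads were divided among copies is not given in the sources used here.

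Tmpo encodes the lamina-associated polypeptides 2. The proximal last exon, 2945 bases long, makes the 693-residue alpha form of the nucleoplasm, and the distal forms are anchored in the inner nuclear membrane. The proximal share was 19.2% in replicate 1 and 18.9% in replicate 2, of 120 and 106 reads. Polr1d, a subunit of RNA polymerases I and III, was near parity with 46.7% and 55.7% proximal. Pnkd, whose human counterpart is mutated in a paroxysmal dyskinesia, had 69.5% and 74.4% proximal, with proteins of 142 amino acids against 360. Cyhr1 had 33.1% and 35.4% proximal and 46.8% and 50.8% distal, with the rest at another acceptor. With reads of new models counted as well, the mean proximal share of Cyhr1 over the libraries was 19.8%, against 34.2% in Known reads. Among these 4, Polr1d alone changed its leading form between libraries.

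Known isoform pairs of this class, again picked after their values were seen, included receptors and matrix proteins. Ghr, the growth hormone receptor, ended proximally as the 297-residue soluble binding protein of mouse in 19 of 29 reads (65.5%) and 41 of 60 (68.3%), and distally as the 650-residue receptor in 34.5% and 31.7%. Fbln1, a basement membrane protein, had 72.3% and 66.7% of its reads in the 685-residue form and 27.7% and 33.3% in the 705-residue form. Nectin2, a cell adhesion protein, had 77.3% and 68.7% in the 467-residue form against 22.7% and 31.3% in the 530-residue form. Psip1, a chromatin reader, had 19.1% and 33.3% in the 331-residue form and 74.5% and 55.6% in the 528-residue form. Qk, an RNA-binding protein of splicing, had proximal shares of 23.6% and 16.1%. The shorter protein led in both libraries in Ghr, Fbln1 and Nectin2, and the longer one in Psip1.

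**Figure D2:**
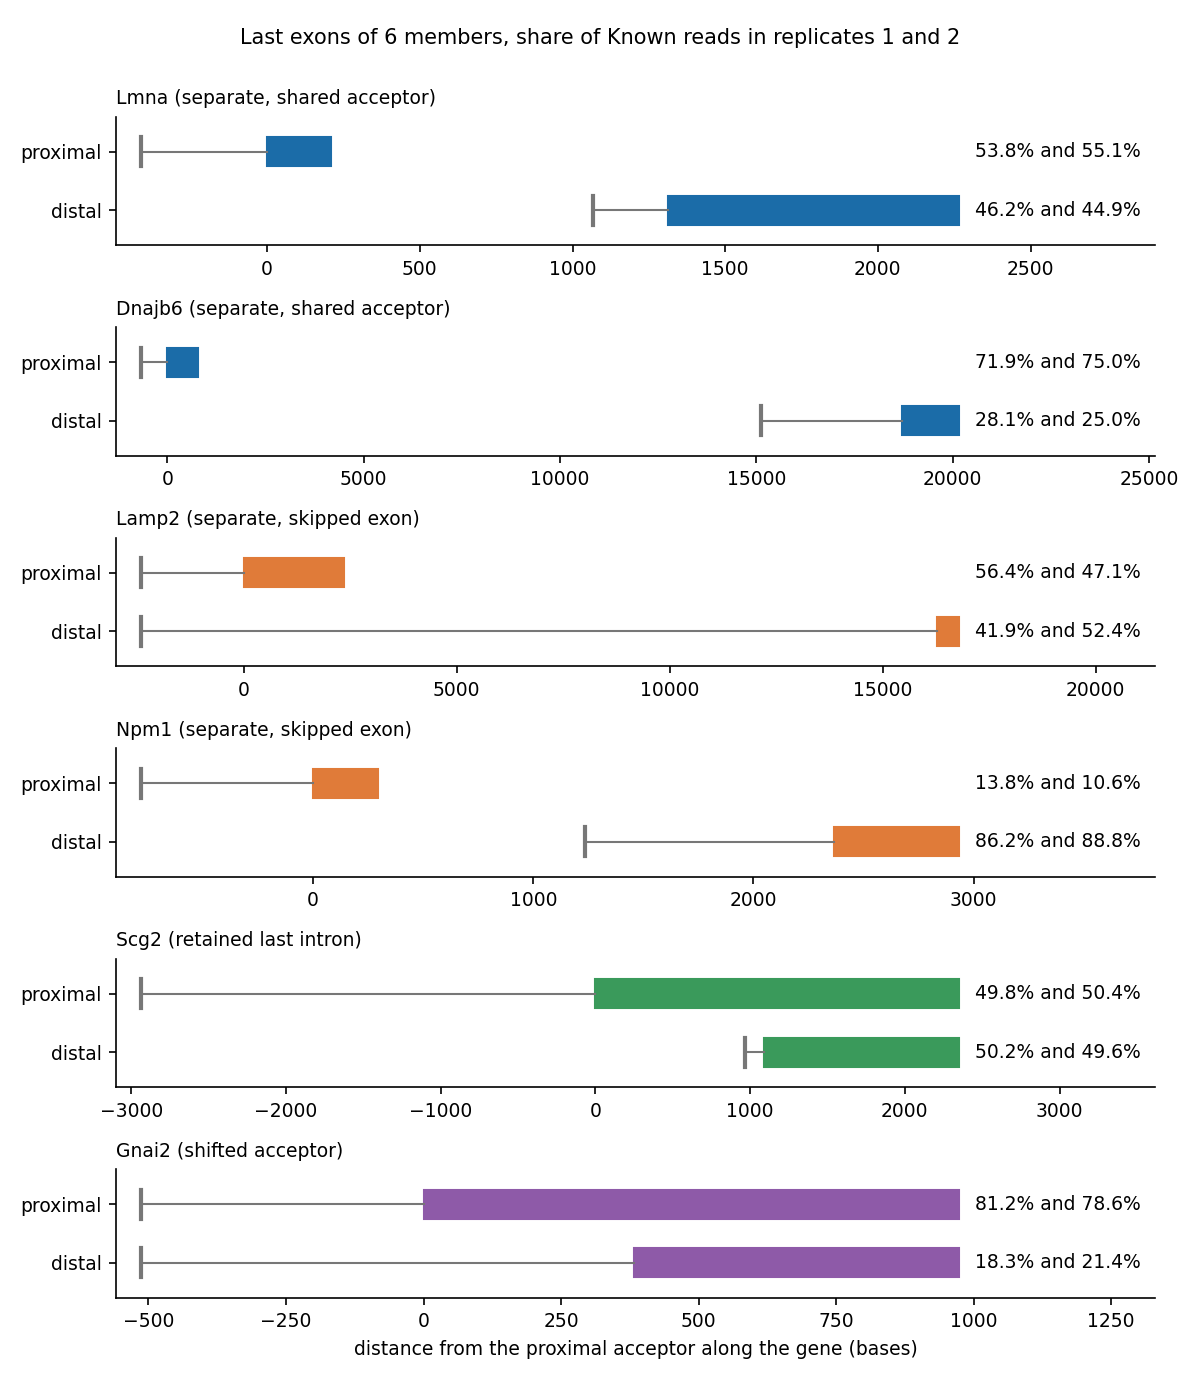
Last intron (grey line, starting at a tick that marks the end of the exon before) and last exon (box) of the proximal and distal forms of 6 members, drawn to scale by distance from the proximal acceptor in bases (x axis, 1 scale per gene). The numbers at the right are the share of Known reads in replicates 1 and 2, such as 53.8% and 55.1% for proximal Lmna, and the last exons overlap in Scg2 and Gnai2 but not in Lmna, Dnajb6, Lamp2 and Npm1.

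Retained last introns had a median length of 555 bases, between 81 and 2724. The form that keeps the intron led in 21 of 35 genes, with a median share of 58.8% in replicate 1 and 50.4% in replicate 2. In this class too, a read of the spliced form that stops before its last intron can have the chain of introns of the proximal form. Where each read ended is not known, so all shares of this class, including those of reads said to keep the intron, are of reads as counted. Scg2, the gene of secretogranin II, a granin of chromaffin granules, had the most reads of all members. The form with the intron kept had 429 of 861 reads (49.8%, interval 46.5% to 53.2%) in replicate 1 and 422 of 838 (50.4%, 47.0% to 53.7%) in replicate 2. The 120-base intron lies inside the coding sequence: the proteins have 617 and 577 amino acids and the same end. Scg2 was the only member of a list of 16 chromaffin genes, 9 of which had enough reads. Of a list of 20 steroid and cholesterol genes, 16 had enough reads, 5 used more than 1 acceptor and 0 were members. Over all genes with enough reads, 3.29% were members, and at these list sizes nothing is read from either count.

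Chpt1, which makes phosphatidylcholine, kept its last intron in 24.3% and 24% of reads, of 419 and 384. Aifm2, which reduces ubiquinone and guards against ferroptosis, kept it in 58.8% and 47.1% of 410 and 261. Prkar2b, a regulatory subunit of the cyclic AMP-dependent kinase through which corticotropin acts, kept it in 88.0% and 85.0% of 393 and 273. The Wilson intervals of the libraries overlapped in Chpt1 and Prkar2b, and those of Aifm2 did not. This is a description of shares that the rule used, and no difference of Aifm2 between libraries is read from it. Dlk1, a membrane ligand related to Notch ligands, had 72.9% and 74.1% in the proximal form, which encodes 385 amino acids against 310. Mat2a, the enzyme that makes S-adenosylmethionine and whose last intron is known to be retained in human cells, had 22.3% and 21.9%.

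Members of the class also included factors of RNA processing, named because they are in a list of such genes. Tardbp, which encodes the RNA-binding protein TDP-43, is known to splice the end of its own transcript. It had 64.9% and 66.7% in the proximal form and 18.9% and 27.8% in the distal form, of 37 and 36 reads, and the distal form is annotated as a target of nonsense-mediated decay. With reads of new models counted as well, the mean proximal share of Tardbp was 51.7%, against 65.8% in Known reads. Pabpn1, the nuclear poly(A)-binding protein, had 27.4% and 36.6% proximal. With shared acceptors, Cstf3, a subunit of the cleavage stimulation factor, had 23.8% and 50% of only 21 and 22 reads, and Wdr33, the subunit that reads the poly(A) signal, 63.3% and 84.4% of 30 and 32. Cstf3, Tardbp and Zfr (15.6% and 20.7% proximal) were the members among 35 genes listed for alternative last exons, 17 of which had enough reads. That list was chosen with results of these data known, so its count is no independent evidence.

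Acceptor shifts had a median of 27 bases, from 2 to 1649. The proximal acceptor led in 14 of 25. Gnai2, an inhibitory G protein subunit, had 81.2% and 78.6% at the proximal acceptor, 383 bases before the distal one. Ndfip2, an adaptor of ubiquitin ligases, had 58.5% and 61.2% at an acceptor 230 bases before the other. H2-K1, a class I antigen-presenting protein, had 38.8% and 43.5% at an acceptor 27 bases before the distal one. H2-K1 has close relatives in the genome, so its counts are uncertain where reads could be split among them. Cd34, a sialomucin of endothelium and stem cells that was picked after its values were seen, had 41.4% and 45.3% proximal, with a truncated protein of 325 amino acids against 382.

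Of the 3-base shifts, Tcf25 had 38.1% and 30.3% of reads at the proximal acceptor and 25.2% and 40.3% at the distal one, with the rest at others. Ctbp1, a transcriptional corepressor, had 54.9% and 50% proximal and 41.8% and 47.9% distal. Mid1ip1, which stimulates fatty acid synthesis, had 24.7% and 17.6% proximal. The others, picked for their shift of 3 bases, were Depp1 (84.1% and 75.4%), Trim32 (54.5% and 54.1%), Hoxd8 (45.9% and 56.5%), Zfp746 (50% and 23.1%) and Adpgk (50% and 40.7%). The proximal share thus lay on both sides of 50% among genes with the same 3 bases between acceptors. The aligner is not stated in the labels or headers, and how reads were placed between acceptors 3 bases apart was not checked. These shares are of reads as counted. With acceptors within 50 bases merged into 1, 129 genes remained, all of them members.

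**Figure D3:**
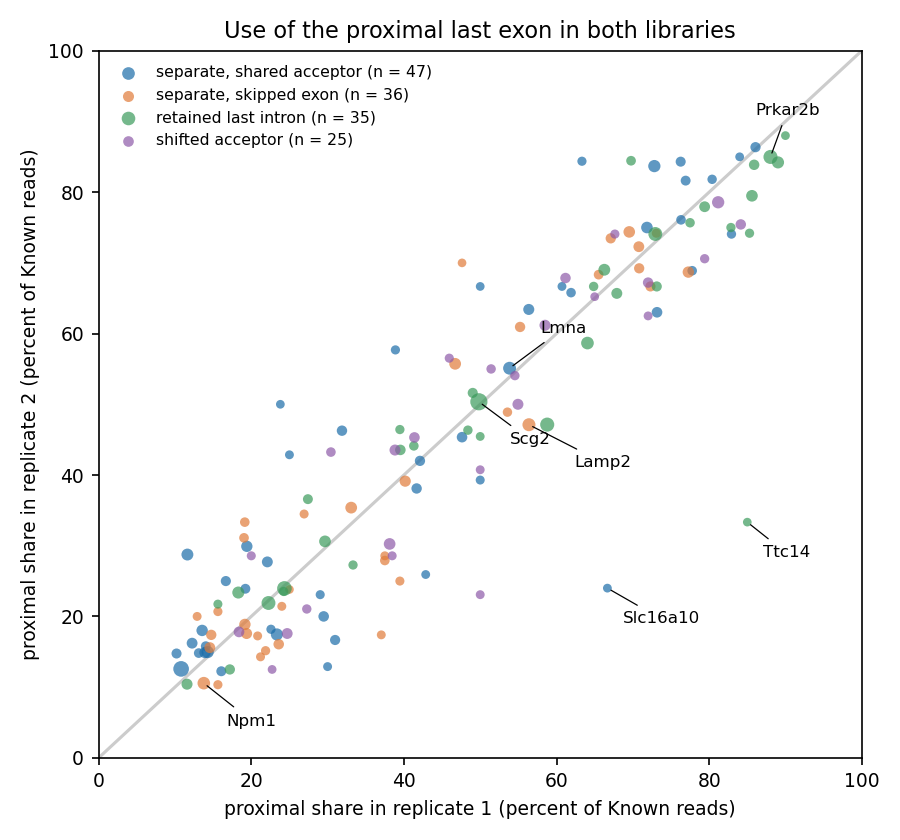
Proximal share of Known reads in percent in replicate 1 (x axis) and replicate 2 (y axis) for the 143 members, coloured by relation of the last exons, with point size growing with the number of reads. Points lie along the line of equal shares, and Ttc14 (85.0% and 33.3%) and Slc16a10 (66.7% and 24%) lie farthest from it.

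Both forms were annotated as protein-coding in 120 of 143 genes. They had different coding ends in 86 genes, 64 of them with separate last exons, and the same end in 34, of which 33 had overlapping last exons. In 21 genes only 1 form was coding and in 2 genes neither. Among the 64 genes with separate last exons and different ends, the proximal protein was shorter in 47 and longer in 16, and in 25 it had at most 75% of the length of the distal one.

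The last 50 bases of the transcripts were searched for AATAAA and ATTAAA, on the transcribed strand only. Either stood in 103 proximal ends (72%) and 108 distal ends (75.5%), against 80.1% of 4344 ends of the leading transcript of all genes with enough reads. With separate last exons the shares were 78.3% proximal and 79.5% distal, and 52 of 83 genes had a match at both ends. The Lamp2 and Tmpo ends had AATAAA on both sides, while of the Lmna ends the proximal one had ATTAAA and the distal one neither. These are annotated ends: the deposited coordinates of Known models equal those of the annotation, so where each read ended is not known.

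Whether the use of last exons differed between the libraries was tested on Known reads with Fisher's exact test (two-sided) over all 932 genes, with Benjamini-Hochberg adjustment. No gene passed an adjusted p of 0.05 (0% called), the smallest being 0.415, and 15 (1.61%) were at an unadjusted p under 0.05. The rule used these shares. It asks for 10% in both libraries, which leaves out genes whose second acceptor fell below that in either library. The test therefore says nothing about the members, and their differences are given as descriptions. The largest was in Ttc14, with 17 of 20 reads (85.0%) proximal in replicate 1 and 7 of 21 (33.3%) in replicate 2.

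The median absolute difference of the proximal share was 5.08 points. The proximal share was higher in replicate 1 in 74 members and higher in replicate 2 in 69. The same acceptor led in both libraries in 130 members and the lead changed in 13. The median width of the interval on either side of the difference was 16.3 points, between 3.83 and 27.2. Smaller differences were therefore not detectable at this depth in a typical member. The shorter form was higher in replicate 1 in 61 members and higher in replicate 2 in 82, and over all members it held 42.4% and 45.1% of the reads of the leading pair.

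Reads of other multi-exon models were not used to choose the members. These are incomplete splice matches, which cover part of an annotated chain, and models that join annotated splice sites anew (new in catalog) or hold a splice site that is not annotated (new not in catalog). Such reads are called outside reads here. At least 10 outside reads at the 2 leading acceptors were found in each library for 53 members, with 1671 reads in replicate 1 and 1513 in replicate 2. In 34 of the 53 (64.2%) both acceptors held at least 10% in both libraries, as they did in 37 of 326 other genes (11.3%). In 19 of the 53 the relation was a shared acceptor. There an incomplete match to the longer form that stops in the shared exon counts as proximal. In 15 the relation was a retained last intron, where an incomplete match to the spliced form that stops before the last intron also counts as proximal. For the genes of both relations the count is therefore no independent evidence of 2 last exons. The 7 genes with a shifted acceptor have overlapping last exons. Of the 12 genes with a skipped exon, 6 had both acceptors at 10% or more in both libraries.

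The size of the share differed between the kinds of reads. The proximal share in outside reads was a median of 16.2 points away from that in Known reads in replicate 1 and 17.7 points in replicate 2. It was lower in 34 genes and higher in 19 in each library. Between libraries, the same genes differed by a median of 9.23 points in outside reads and 5.64 points in Known reads. Across the 53 genes, Pearson's r between Known and outside shares was 0.38 in replicate 1 and 0.34 in replicate 2, while outside shares of the libraries had an r of 0.91. The r between Known and outside shares depended on the class of outside reads. It was 0.09 and 0.03 in new models alone (19 genes) and 0.35 and 0.08 in incomplete splice matches alone (14 genes). In incomplete matches to the 3′ part of a chain (10 genes) it was 0.23 and -0.06. No relation of size is read from these coefficients, which describe genes that share libraries and depth. The same acceptor led in Known and outside reads of both libraries in 33 genes, and the other acceptor led the outside reads of both in 12.

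Cops7a, a subunit of the COP9 signalosome, had a proximal share of 27.8% in the Known reads of each library. In its outside reads the proximal share was 95.7% of 141 in replicate 1 and 94.9% of 137 in replicate 2. Ctbp1, with the CAG acceptors printed above, had 56.8% and 51.1% in Known reads and 96.8% of 317 and 96.0% of 248 in outside reads. Most outside reads of both genes belonged to new models, 124 and 126 in Cops7a and 304 and 239 in Ctbp1. With new models counted beside Known ones, the mean proximal share was 84.6% in Cops7a and 85.7% in Ctbp1, against 24.4% and 52.5% of all Known reads. Lmna had 87.1% proximal in the outside reads of each library, 70 and 93 reads, of which 66 and 82 were incomplete splice matches, against 53.8% and 55.1% in Known reads. The limit on incomplete matches in genes with a shared acceptor holds for these Lmna reads. Gnai2 turned the other way, with 18.8% of 16 and 27.8% of 36 outside reads at the proximal acceptor against 81.6% and 78.6% in Known reads. So did Sh3glb1, with 10% of 30 and 18.5% of 27 against 72.8% and 83.7%. The distal acceptor also led the outside reads of both libraries in Tardbp and Lamp2, both among the 12 genes given above. Their proximal shares were 7.14% of 14 and 35.7% of 14 outside reads in Tardbp, and 27.3% of 11 and 21.4% of 14 in Lamp2.

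In other genes both kinds of reads gave like shares. Aifm2 had 66.1% of 183 and 56.5% of 124 outside reads at the proximal acceptor against 71.7% and 60.3% of Known reads at the same pair. Optn, an autophagy receptor picked after its values were seen, had 83.3% and 85.2% against 85.9% and 83.9%. Chpt1 had 22.7% and 30% against 25.6% and 25.7%. The proximal acceptor had no outside read in either library in Hmgn3 (17 and 10 reads), Wdr33 (13 and 16) and Zfr (27 and 22), although it held 18.3% and 23.4%, 65.5% and 84.4%, and 15.6% and 20.7% of their Known reads at the pair. Scg2, at parity in Known reads, had 0 of 14 and 2 of 15 outside reads with the intron kept. Outside reads are of multi-exon models only. A read that starts inside the last exon of the intron-kept form is therefore not counted, while such a read of the spliced form can be. The same holds for the other genes with a retained last intron and for those with a shared acceptor. How far this lowers the proximal share in outside reads was not tested. Fisher's exact test between libraries on outside reads called none of 379 genes (0% called), 5 were at an unadjusted p under 0.05 (1.32%), and none of the 53 members was.

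**Figure D4:**
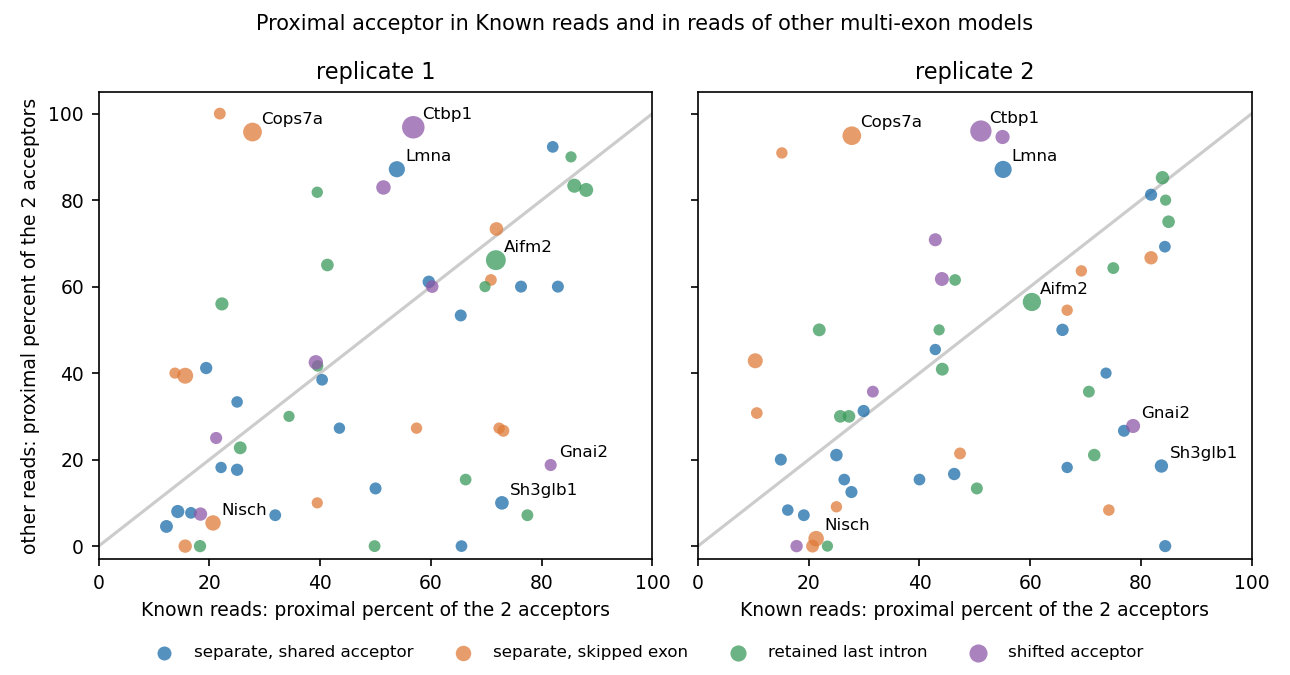
Proximal share in percent among reads at the leading pair of acceptors, in Known reads (x axis) and in outside reads (y axis), for the 53 members with at least 10 outside reads in each library, with replicate 1 at the left, replicate 2 at the right and point size growing with outside reads. Ctbp1, Cops7a and Lmna lie above the line of equal shares in both panels, and Gnai2 and Sh3glb1 below it.

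Because a long read can hold both ends of a transcript, it was asked whether the first exon went with the last. The donor of the first intron, most used against others, was set against the leading last acceptor in each library with Fisher's exact test on Known reads. A Known read has an annotated chain, so a combination of ends that no annotated transcript holds cannot be counted. Of all genes, 14 had at least 10% of reads on each side of both splits in both libraries, and 13 of these were members. In 8 (57.1% of those tested) the adjusted p was under 0.05 in both libraries with the same direction, and all 8 are members. A gene with 1 main last exon cannot enter this test, so the share of members among the calls follows from the rule. With reads of new models counted as well, an alternative chosen after seeing the data, 30 genes were tested and 4 were called (13.3%): Pnkd, Cyhr1, Hmgn3 and Crebzf, all among the 8.

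In Pnkd, 89 reads with the leading first exon ended in the leading last exon and 9 ended elsewhere in replicate 1, and 90 and 4 in replicate 2. None of the 30 and 27 reads with another first exon ended there, although an annotated transcript of Pnkd holds that combination. With new models counted, these were 0 of 31 and 0 of 29 reads. In Cyhr1, 65 and 28 reads with the leading first exon ended in the leading last exon or elsewhere in replicate 1, and 66 and 18 in replicate 2, against 0 and 46 in each library for other first exons. The empty combination is annotated in Cyhr1 too. With new models counted, 68 of 202 and 68 of 187 reads with the leading first exon ended in the leading last exon, against 1 of 49 and 0 of 48 with others. Cops7a (13 and 2 in each library against 0 and 5 in replicate 1 and 0 and 6 in replicate 2) and 1500011B03Rik (10 and 9 against 0 and 7, then 13 and 6 against 0 and 10) had the same arrangement with fewer reads. In these, no annotated transcript holds the empty combination, so their empty cells and calls are set in part by the annotation. With new models counted, Cops7a had 13 of 121 and 14 of 125 reads with the leading first exon in the leading last exon, against 4 of 29 and 3 of 23 with others, and was not called. Pnkd had adjusted p-values of 1.92e-20 and 6.44e-22 by the exact test, the smallest of the 8. 1500011B03Rik had 0.0318 and 0.00144, and 0.0647 and 0.0122 with new models counted.

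Hmgn3, a nucleosome-binding protein, paired the other way round. Its 26 and 25 reads with another first exon all ended in the leading, distal last exon, while 28 of 127 and 36 of 129 reads with the leading first exon ended elsewhere. Its empty combination is annotated. Arl16, a small GTPase of the ARF family, had 20 and 0 reads with the leading first exon against 7 and 5 with others in replicate 1, and 15 and 1 against 3 and 4 in replicate 2. The remaining called genes were Olfm1 and Crebzf, both with reads in all 4 combinations in each library. In 5 of the 8 a combination was empty in both libraries, and in 2 of these 5 it is not annotated. Arl16 and Olfm1 were not called with new models counted.

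**Figure D5:**
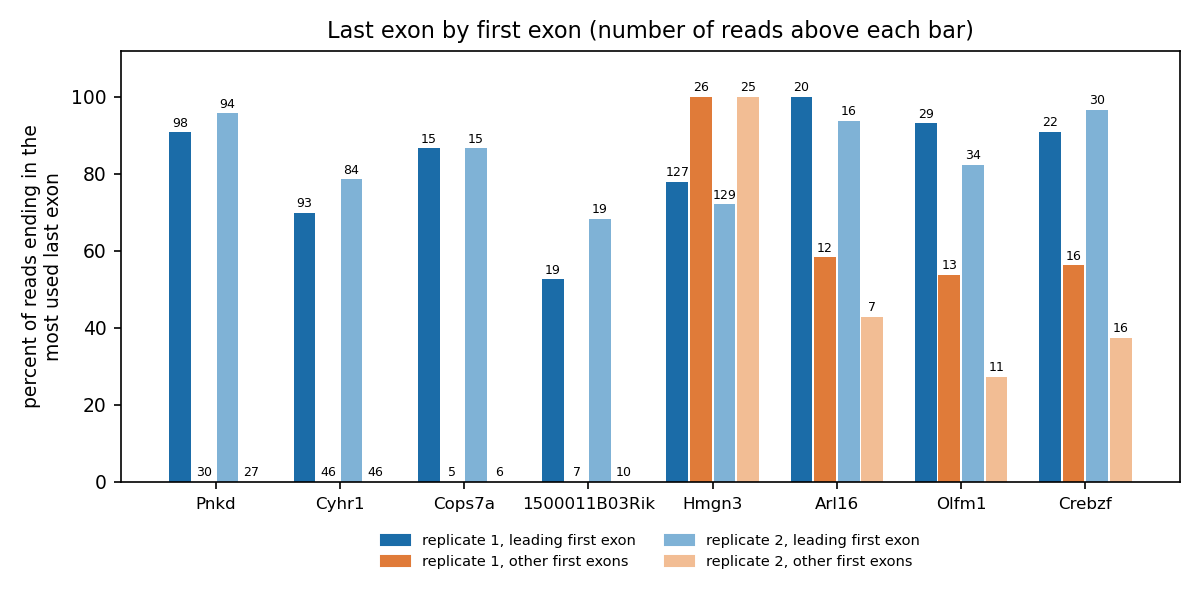
Percent of Known reads that end in the most used last exon (y axis) for the 8 genes called in the pairing test, with blue bars for reads that start at the leading first exon and orange bars for reads that start elsewhere, dark for replicate 1 and light for replicate 2. In Pnkd, Cyhr1, Cops7a and 1500011B03Rik the orange bars are at 0, a combination that is annotated in Pnkd and Cyhr1 only, and the number of reads stands above each bar.

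The levels of the genes themselves were compared with a two-sided exact binomial test over 11094 genes, on reads of all models. Replicate 1 was higher in 534 genes (4.81%) and replicate 2 in 483 (4.35%). Of the members, 10 were higher in replicate 1 and 3 in replicate 2. On the log2 scale, replicate 1 over replicate 2 had a median ratio of 0.13 in members and 0.15 in all tested genes. Scaling by the trimmed mean of M-values (TMM) moves that median of all genes to -0.01 and the split of calls to 205 and 675 (23.3% higher in replicate 1, against 52.5%), and leaves 4 and 3 members called. Syncrip, an RNA-binding protein, had 82.9 CPM against 40.6 CPM, replicate 1 first (adjusted p of 0.00369 by the exact test), the largest ratio. Aifm2 was at 706 and 473 CPM, Prkar2b at 463 and 324 CPM and Ppm1a at 235 and 152 CPM.

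Mat2a, Npm1, Sh3glb1, Qk, Elac2 and Grk6 were the other members higher in replicate 1, and none of these 6 was called with TMM scaling. Of these, Elac2 had the largest ratio, 1.80, with 98.5 and 54.8 CPM. Ghr was lower in replicate 1, at 39.4 CPM against 73.1 CPM, while its proximal share was 65.5% and 68.3%. Ndufa7, at 499 and 654 CPM, and the nucleotide kinase gene Dtymk, at 92.3 and 140 CPM, were also higher in replicate 2. Dtymk was not called when only Known models were counted, at an adjusted p of 0.259 by the exact test. In a sample of mixed cells, more cells of a type and more RNA per cell cannot be told apart. Liver markers were higher in replicate 2, as given above, and their part in these levels was not tested.

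A list of 51 factors of cleavage, polyadenylation and the splicing of last exons had 42 genes with enough reads. Of these, 3 were higher in replicate 1 (7.14%, beside 4.81% of all genes) and none in replicate 2 (beside 4.35%), and 39 were not called. A share this near that of all genes is not a result about the list. The median log2 ratio was 0.19 in the list and 0.15 over all genes. The 3 were Ppp1cb, a phosphatase subunit of the cleavage complex, at 187 and 110 CPM, Ptbp1, a splicing repressor, at 117 and 76.1 CPM, and Qk at 110 and 68.0 CPM. With TMM scaling only Ppp1cb of these was called, and Ptbp1 was called under none of the 3 alternatives. Members among the factors numbered 6: Papola, Pabpn1, Wdr33, Cstf3, Tardbp and Qk. Only 22 of the 51 had enough Known reads to be considered, and the list was chosen with results of these data known.

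At the threshold of the rule, 3 members lay just inside and 3 genes just outside. Magt1, a subunit of the oligosaccharyltransferase, had a distal share of 10% and 12%. 0610037L13Rik had a second share of 10.2% and 14.8%, and Usp19, a deubiquitinase, of 15.6% and 10.3%. The place of Usp19 at the threshold holds for Known reads: its second, proximal acceptor had 39.4% of 66 and 42.9% of 49 outside reads, and with new models counted its mean share was 33.8%, against 13.0%. Just outside, Med25, a subunit of Mediator, had 13.0% and 9.76%, Mir22hg 9.76% and 22.7%, and Tmem33 9.80% and 9.76%. These differ by less than the counting error of a few reads.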

How the data were processed

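The reads of each library were placed on mm10 and counted per transcript model of GENCODE M21 and of new models, per the file headers. The annotation names TALON, while aligner, versions and filters are not stated in the labels or headers. The deposited values are raw read counts per model, listed from 1 read, with no normalization by the authors and no pooling. The number of exons and length of each model come from the deposited tables and exon positions from the deposited annotations. Spike-in reads (1.72% and 1.79%) were left out of library sizes. The mice are hybrids of which mm10 represents the C57BL/6 side, and the effect on counts was not tested.

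The most-read model of an acceptor group stood for its lengths, type and sequence, read from the M21 transcripts. Outside reads needed 10 per library at the leading pair, levels 10 reads over both libraries, and pairing odds ratios had 0.5 added to each cell. Calls were at an adjusted p of 0.05. Intervals are 95% Wilson or Newcombe intervals and cover counting error only, since reads carry no molecular identifiers in these counts. Levels are CPM, counts per 1000000 reads. The tests were run on simulated data with counting error only, which does not show how they behave under spread between libraries. Python 3.11.15, scipy 1.17.1, statsmodels 0.14.6 and edgeR 4.0.16 (for TMM only) were used. A count model across replicates was not used because there is 1 group.

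Named genes were the 6 members of each class with the most reads, the 6 strongest pairing calls, list members and the 3 nearest the threshold. Some genes that this rule names are not reported here. Genes named otherwise are said to be so. The members and lists were chosen with earlier results of these data known.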

Additional observations from a re-analysis of the deposited data

How the results depend on the processing

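The count of members, 143, became 220 with a second acceptor of at least 5%, 79 with 20%, 221 with 10 reads per library, 67 with 50 reads, and 245 with new models counted beside Known ones, of which 142 were members before. It was 195 without replicate 1 and 208 without replicate 2, since the rule then binds in 1 library only. With new models counted, the Fisher test of last exon use over all genes called 2 of 2706, Suds3 (67.5% and 20.4%) and Mif4gd (0% and 21.4%), neither a member, with 0 calls under the other alternatives and smallest adjusted p-values from 0.148 to 0.415. The share of members with both acceptors at 10% in outside reads, 64.2%, was 42.9% of 14 genes in incomplete splice matches alone, 47.4% of 19 in new models alone and 40% of 10 in incomplete matches to the 3′ part of a chain, a setting chosen after seeing the data. Members called by level, 13 (10 higher in replicate 1), were 7 (4) under TMM scaling, and the factor list, 3 calls (all higher in replicate 1), had 1 and 1. The cause of these moves was not tested. Without replicate 1 or without replicate 2, pairing calls numbered 10 and 9, the original 8 among them. With new models counted, chosen after seeing the data, they numbered 4, all among the 8, of 30 genes tested. Under it the odds ratio of Cops7a turned to the other side, with a smaller absolute log2 value of 0.39 against 5.89, and Olfm1, Arl16 and 1500011B03Rik were no longer called. Of the 34 genes named by rule, 12 had a proximal share moved beyond the spread of the libraries by counting new models, 4 of them by over 1.5 times: Usp19, Cops7a, Ctbp1 and Cyhr1. Pairing with 20% on each side (6) or merged donors (8), and class counts from the longest model (80 separate), moved by less than 1.5 times. No paired analysis was possible because there is 1 group and no contrast between groups. The search for A-rich bases after the ends and pyrimidines before the acceptors was not run, because no genome sequence was used here. Depth limits shares most in genes near 20 reads.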
